A study of Danio rerio with 9 samples.

Results

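The genes described here encode the receptors for the fast transmitters of the nervous system, glutamate, GABA and glycine. They are the rows of the deposited expression table whose symbol begins with gria, grin, grik, grid, grm, gabr, gabbr, glra or glrb, and there were 78 such rows among 33737 genes. They comprised 8 AMPA, 8 kainate, 12 NMDA and 3 delta glutamate receptor genes, 12 metabotropic glutamate receptor genes, 16 GABA-A receptor genes, 6 genes of the rho subunits of the GABA-A family, 3 GABA-B receptor genes and 7 glycine receptor genes. The other 3 rows share the spelling but are not known receptors. The genes *grid2ipa* and *grid2ipb* encode delphilin, a scaffold protein of delta receptors, and *grm7p* is a short entry of 263 bases to which no role is given here. Symbols are printed as the table has them, and names in capitals with a copy number, such as *GRIK2 (1 of 2)*, are its names for zebrafish copies of a human gene. Reads that match near-identical copies equally well cannot be assigned to 1 of them, and how such reads were counted is not given.

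The ionotropic receptors are ion channels that open when the transmitter binds. AMPA and kainate receptors carry fast excitation, and NMDA receptors, which open only at depolarized membranes, pass calcium and are built around an obligate GluN1 subunit. GABA-A and glycine receptors are chloride channels that mostly inhibit, and the rho subunits form GABA channels best known from bipolar cells of the retina. Metabotropic glutamate receptors and GABA-B receptors act through G proteins. One of them, mGluR6, lets ON bipolar cells of the retina respond to the glutamate released by photoreceptors. In the zebrafish embryo these genes are known mainly from the brain, the spinal cord and the retina.

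RNA was sequenced from whole zebrafish embryos of the TUAB strain at 72 hpf (hours post fertilization), with 3 libraries in each of 3 groups. Each library came from a pool of 30 embryos, so the spread between libraries is one between pools, and which clutch each pool came from is not given. The study states for its embryos in general that members of a single clutch were used where possible, and that controls and injected embryos were drawn from it at random. The wild-type embryos are TuAB by their labels, and the study also calls them siblings. The mutants, *MZcep290-/-*, were maternal zygotic, which means that neither the egg nor the embryo supplied intact *cep290*, and they carried a 10-bp deletion in exon 16, the only allele examined. Mothers without intact *cep290* have no wild-type offspring, so the mutant and wild-type embryos cannot be of the same clutch. Between these groups, the effects of the mutation and of parents or clutch cannot be told apart. The morphants, *cep290ex25*, came from embryos injected with a morpholino against the splice donor of exon 25 of *cep290*, which encodes a protein of the ciliary transition zone. No library from embryos injected with a control morpholino was used here, so the effects of injection and of the loss of *cep290* cannot be told apart. The comparison of a mutant with a morphant addresses how the outcome depends on the way in which a gene is disabled.

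Values are RPKM, reads per kilobase of gene relative to a normalized library size. Each wild-type library had 5652757 to 7674248 reads on genes, each mutant library 18662115 to 21299112 and each morphant library 9050375 to 16150393. On a gene of 2 kb, 3 reads amounted to 0.265 to 0.309 RPKM in wild type, 0.0535 to 0.0615 RPKM in the mutants and 0.0871 to 0.185 RPKM in the morphants. The 50 genes with the most reads took 40.8% to 41.9% of the reads in wild type, 21.3% to 22.0% in the mutants and 27.8% to 34.0% in the morphants. Genes above 0 numbered 23139 to 23773 in wild type, 25485 to 25538 in the mutants and 20258 to 22081 in the morphants. Wild type thus had reads on more genes than the morphants, from fewer reads. The part of this in the genes lower than wild type was not tested. The targeted gene *cep290* was read at 1.62 to 2.60 RPKM in wild type, 1.14 to 1.32 RPKM in the mutants and 3.36 to 6.15 RPKM in the morphants. Neither lesion has to change a read count, so these levels do not check the labels. Differences between groups were tested in limma on log2(RPKM + 0.1), for 21982 genes that reached 0.5 RPKM in 3 or more libraries. A gene was called higher or lower at an adjusted p under 0.05 and a change above 2-fold, and fold changes on this scale understate the change of low genes. In whole embryos, fewer cells of a type and less RNA per cell cannot be told apart.

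The receptor genes were read at low levels in every group. The median over the 78 genes of their mean level was 2.16 RPKM in wild type, 1.02 RPKM in the mutants and 0.530 RPKM in the morphants, and the highest mean level was 11.3, 9.86 and 5.79 RPKM respectively. The mean of the morphants was below that of wild type in 74 of the 78 genes, the mean of the mutants was below that of wild type in 65, and the mean of the mutants was above that of the morphants in 72. The place of the mutants in this order depends on how the libraries are scaled. When the libraries were scaled by their read totals instead, 36 of the 71 genes tested were above wild type in the mutants and 35 below, with a median log2 fold change of 0.04 beside 0.68 for all genes, where the deposited scaling gave 13 above and 58 below.

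Of the 78 genes, 71 passed the filter on low values. The 7 that did not included *GABRA2 (2 of 3)*, *GABRA2 (3 of 3)*, *GABRB2 (1 of 2)*, *gabra6a*, *gabra6b* and *GRIN3B (2 of 2)*, and *GABRB2 (1 of 2)* was at 0 in all 9 libraries. Of the 71, *gabrr1*, *grin2cb*, *grid2ipa* and *grm6a* passed through their wild-type libraries alone, and a gene that passed in this way had to be lower elsewhere. With these 4, 13 of the 71 would have missed the filter without wild type, the others being *GABRA4*, *GABRB1*, *gabrr2a*, *gabrr2b*, *gabrr3b*, *grin2ca*, *grin3b*, *GRM5 (1 of 2)* and *GRM5 (2 of 2)*. Against wild type, 40 of the 71 genes fell in the morphants and none rose, where 14.9% of all genes tested fell and 7.45% rose. The median log2 fold change of the 71 genes was −1.59, and that of all genes tested was −0.05. With limma's voom on the recovered reads 45 fell in the morphants, where 16.3% of all genes fell, and none rose, where 7.67% rose. In the mutants 8 genes fell, where 12.1% of all genes tested fell, and 2 rose, where 10.4% of all genes rose, with a median of −0.65 beside −0.02 for all genes. The 8 genes were 11.3% of those tested, near the share of all genes. They included the 4 that passed the filter through wild type alone, whose direction the filter had set. The 40 genes that fell in the morphants included all of the 13 that needed wild type but *GABRA4*, *GABRB1* and *gabrr2a*. In the direct comparison of the 2 depleted groups, 8 genes were higher in the mutants than in the morphants, where 3.48% of all genes were higher, and none was lower, where 2.40% of all genes were lower. With voom 26 were higher here, where 7.51% of all genes were higher, and none lower, where 3.13% were lower. The median of this difference was 1.01 beside 0.14 for all genes. The comparisons share their groups and are not independent of each other.

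With no filter, among the 77 genes with any read, 40 were lower in the morphants, where 11.9% of all genes were lower, and 7 were lower in the mutants, where 8.87% of all genes were lower. Restricted to the 19 receptor genes whose mean reached 2 RPKM, 5 were lower in the morphants, where 4.31% of the genes tested were lower, and 5 were higher in the mutants than in the morphants, where 3.34% were higher. Under cyclic loess normalization, which removes a dependence of the difference on the level, 6 were lower in the morphants, where 4.16% of all genes were lower, 2 were lower in the mutants, where 6.29% of all genes were lower, and the medians against wild type became −0.71 in the morphants and −0.10 in the mutants.

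The counts in the mutants changed when single libraries were left out, and so did those of all 21982 genes tested. The 2 genes higher than in wild type became 0 without wild-type replicate 1, without any 1 of the mutant libraries and without morphant replicate 1, and 1 without any other library. Among all genes, 2286 were higher, and this became 2524 without wild-type replicate 1, 1785 without mutant replicate 1 and 2212 without morphant replicate 1. The 8 lower genes became 5 without wild-type replicate 1, 3 without mutant replicate 1 or 3, 4 without mutant replicate 2 and 12 without morphant replicate 1. Among all genes, 2657 were lower, and this became 2658, 1811, 1902, 1884 and 2667 without these libraries in the same order. The 8 genes higher in the mutants than in the morphants became 16 without wild-type replicate 1, 1 without mutant replicate 1 or morphant replicate 3, 2 without mutant replicate 2 or 3 and 3 without morphant replicate 1. Among all genes, 766 were higher, and this became 1064, 258, 421, 279, 268 and 469 without these libraries in the same order. The count of genes lower in the morphants lay between 32 and 41 with any 1 library left out, and 26 of the 40 genes were called each time. Among all genes, 3273 were lower there, and this became 2851 without mutant replicate 2 and 3605 without wild-type replicate 3.

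**Figure D1:**
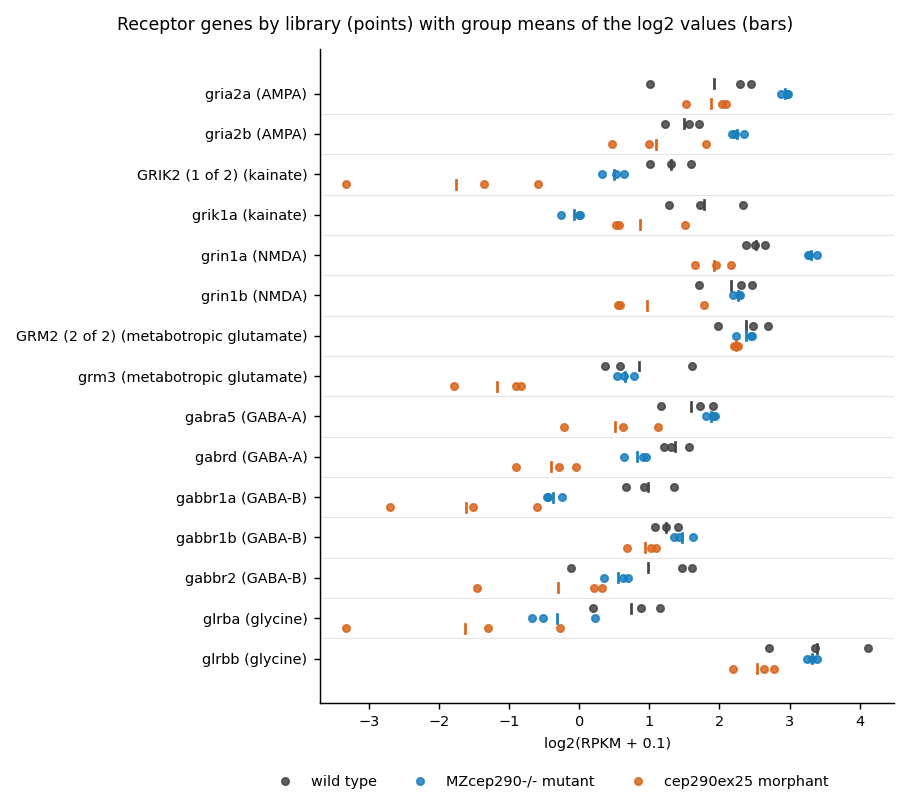
Level of 15 receptor genes in each of the 9 libraries, as log2(RPKM + 0.1), with 1 point for each library and a vertical bar at the mean of the log2 values of each group. The 3 mutant libraries lie close together in every gene but *glrba*. *grin1a* is the gene whose mutant libraries lie above and morphant libraries below all wild-type libraries, and *grik1a* is lowest in the mutants.

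The AMPA receptor genes had mutant sums like those of wild type and lower morphant sums. The sum over the 8 genes was 20.3, 26.7 and 23.8 RPKM in wild type, 26.0, 24.5 and 26.2 RPKM in the mutants and 11.5, 15.2 and 9.38 RPKM in the morphants. The morphant sums lay below all others, and the wild-type and mutant sums overlapped. Of the 8 genes, 5 fell in the morphants and none rose, and in the mutants 1 rose and none fell. The counts for each class and gene list stand beside the same shares of all genes tested. These were 14.9% lower and 7.45% higher in the morphants, and 12.1% lower and 10.4% higher in the mutants. For the mutants against the morphants they were 3.48% higher and 2.40% lower.

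Within the AMPA group the GluA2 genes had the highest levels in RPKM in the mutants. GluA2 is the subunit that, once its RNA is edited, makes the channel impermeable to calcium. *gria2a* (ENSDARG00000070173) was at 1.91, 4.80 and 5.37 RPKM in wild type, 7.80, 7.26 and 7.68 RPKM in the mutants and 4.17, 3.99 and 2.76 RPKM in the morphants. It rose in the mutants (log2 fold change 1.02, standard error 0.355, adjusted p = 0.0490), with every mutant library above every wild-type library, and its wild-type value of 1.91 RPKM in replicate 1 was well below the other pair. This call was kept in 7 of 22 alternatives and in 2 of the 9 fits without 1 library. In the morphants its fold change against wild type was −0.03, adjusted p = 0.947. *gria2b* (ENSDARG00000052765) was at 2.85, 3.16 and 2.24 RPKM in wild type, 4.44, 4.57 and 5.01 RPKM in the mutants and 1.90, 3.42 and 1.28 RPKM in the morphants. It was higher in the mutants than in the morphants (log2 fold change 1.16, standard error 0.331, adjusted p = 0.0482), a call kept in 10 of 22 alternatives, and its fold change in the mutants against wild type was 0.75, adjusted p = 0.106.

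The other AMPA genes were not called in the mutants, and 5 of the 6 fell in the morphants. *gria4a*, for a GluA4 subunit, was at 2.27, 1.61 and 1.63 RPKM in wild type, 0.877, 0.588 and 0.738 RPKM in the mutants and 0.0543, 0.217 and 0.316 RPKM in the morphants. The 3 morphant libraries held 3, 19 and 13 reads, all groups were separate, and the gene fell in the morphants (log2 fold change −2.81, standard error 0.480, adjusted p = 0.00234). *gria1b*, for a GluA1 subunit, was at 2.86, 1.23 and 1.47 RPKM in wild type, 0.776, 0.654 and 1.13 RPKM in the mutants and 0.426, 0.524 and 0.229 RPKM in the morphants, again with no overlap between the groups, and it fell in the morphants (log2 fold change −1.95, standard error 0.466, adjusted p = 0.0110). *gria3a* and *gria3b*, for GluA3 subunits, fell in the morphants by 1.28 and 1.22 on the log2 scale, and *gria1a* fell by 1.24 there, a call kept in 6 of 21 alternatives, while its mutant values overlapped those of wild type. *gria4b* was at 1.90, 4.53 and 3.91 RPKM in wild type and 1.59, 2.36 and 1.02 RPKM in the morphants, and was not called (−1.003, adjusted p = 0.0681).

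A share within a library does not depend on how libraries are scaled to each other, but it keeps any dependence of the change on level. The median change of all genes tested ran from −1.05 up to 1 RPKM to 0.33 from 4 to 8 RPKM in the mutants. In the morphants it ran from −1.80 to 0.31 between these ranges. The part of this in the shares was not tested. *gria2a* and *gria2b* together held 23.4, 29.9 and 32.0% of the AMPA sum in wild type, 47.0, 48.3 and 48.5% in the mutants and 52.6, 48.7 and 43.2% in the morphants. All 6 libraries of the depleted groups lay above all wild-type libraries. In the morphants *gria2a* itself was at 2.76 to 4.17 RPKM, inside the wild-type range of 1.91 to 5.37 RPKM, while in the mutants both GluA2 genes were above wild type in every library. The shares were chosen with the levels known and are given as a description.

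The summed level of the kainate receptor genes was lower than in wild type in both groups, while few of the genes were called. It was 23.3, 16.6 and 16.04 RPKM in wild type, 8.56, 8.84 and 9.95 RPKM in the mutants and 5.99, 6.69 and 6.18 RPKM in the morphants, with no overlap between any groups. Of the 8 genes 3 fell in the morphants and 1 in the mutants, and none rose in either. The 1 that fell in the mutants was *grik1a* (ENSDARG00000069139), for a GluK1 subunit, at 3.19, 2.33 and 4.93 RPKM in wild type, 0.738, 0.900 and 0.911 RPKM in the mutants and 1.33, 1.38 and 2.74 RPKM in the morphants. Its mutant values lay below all other libraries (log2 fold change −1.86, standard error 0.386, adjusted p = 0.00555), and it was called lower in the mutants under all 22 alternative settings. In the morphants its values overlapped those of wild type (−0.91, adjusted p = 0.0946), so its order between the depleted groups was opposite to that of most receptor genes, with a mutant-against-morphant fold change of −0.94, adjusted p = 0.145.

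*GRIK2 (1 of 2)*, for a GluK2 subunit, showed the reverse pattern. It was at 2.93, 2.37 and 1.90 RPKM in wild type, 1.15, 1.34 and 1.46 RPKM in the mutants and 0.567, 0.290 and 0 RPKM in the morphants, and morphant replicate 3 held no read of it. The gene fell in the morphants (log2 fold change −3.06, standard error 0.640, adjusted p = 0.00598) and was higher in the mutants than in the morphants (log2 fold change 2.25, standard error 0.640, adjusted p = 0.0474), a call that held in 7 of 21 alternatives. The other 2 that fell in the morphants encode the GluK4 and GluK5 subunits, which need a partner of the GluK1 to GluK3 type to form a channel. *grik4* fell by 2.39 on the log2 scale and *GRIK5 (2 of 2)* by 1.42. *GRIK1 (1 of 2)*, *GRIK2 (2 of 2)*, *GRIK3* and *grik5* were not called in any comparison, and their changes in the morphants ran from −2.21 for *GRIK2 (2 of 2)* to −0.95 for *grik5*.

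Of the 11 NMDA receptor genes tested, 7 fell in the morphants, and in the mutants 1 fell, a GluN2C gene, and none rose. Neither gene for the obligate GluN1 subunit was called in the mutants against wild type. *grin1a* (ENSDARG00000027828) was at 6.18, 5.58 and 5.12 RPKM in wild type, 10.4, 9.46 and 9.54 RPKM in the mutants and 4.36, 3.77 and 3.03 RPKM in the morphants. Every mutant library was above, and every morphant library below, every wild-type library. It was higher in the mutants than in the morphants (log2 fold change 1.39, standard error 0.169, adjusted p = 0.00137), a call kept under all 22 alternatives. The fold change of the mutants against wild type was 0.79, adjusted p = 0.00623, and that of the morphants was −0.60, adjusted p = 0.0232, both past the limit on p but under 2-fold. It was the 1 receptor gene among 71 whose libraries were ordered in this way, and 113 of the 21982 genes tested were.

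*grin1b* (ENSDARG00000025728), the other GluN1 gene, was at 3.17, 4.87 and 5.39 RPKM in wild type, 4.77, 4.47 and 4.82 RPKM in the mutants and 1.37, 3.32 and 1.40 RPKM in the morphants. Mutant and wild-type values overlapped, morphant replicate 2 overlapped wild type, and the gene fell in the morphants (log2 fold change −1.19, standard error 0.349, adjusted p = 0.0267) and was higher in the mutants than in the morphants (log2 fold change 1.29, standard error 0.349, adjusted p = 0.0398). The former call was kept in 13 of 22 alternatives and the latter in 11. Together the 2 GluN1 genes held 41.1, 36.5 and 41.8% of the NMDA sum in wild type, 68.6, 67.9 and 67.7% in the mutants and 57.5, 64.3 and 56.3% in the morphants. The shares of the groups did not overlap, and that of the mutants was the highest. Like the AMPA shares, they keep any dependence of the change on level.

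The GluN2 subunits set the kinetics and the pharmacology of the NMDA channel. *grin2cb*, for a GluN2C subunit, which passed the filter through wild type alone, was at 2.87, 2.57 and 1.40 RPKM in wild type, 0.340, 0.273 and 0.246 RPKM in the mutants and 0.0730, 0.258 and 0.353 RPKM in the morphants. All 6 values of the depleted groups were at or below 0.353 RPKM and all wild-type values at or above 1.40 RPKM, and the gene fell in the mutants (log2 fold change −2.57, standard error 0.518, adjusted p = 0.00473) and in the morphants (log2 fold change −2.91, standard error 0.518, adjusted p = 0.00284). *grin2aa*, for a GluN2A subunit, was at 2.00, 2.88 and 1.98 RPKM in wild type, 1.26, 1.10 and 0.947 RPKM in the mutants and 0.487, 0.575 and 0.412 RPKM in the morphants. The groups did not overlap, the gene fell in the morphants (log2 fold change −1.999, standard error 0.340, adjusted p = 0.00231), and its fold change in the mutants, −0.98, adjusted p = 0.0501, missed both limits narrowly. *grin2ca*, *grin2da*, *grin2db* and *grin3b* also fell in the morphants, with log2 fold changes of −2.42, −2.003, −1.12 and −1.67. The call of *grin2db* was kept in 4 of 21 alternatives, and under cyclic loess its change, like that of *grin3b*, turned above 0. *grin2ab*, *grin2bb* and *GRIN3A* were not called in any comparison.

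The sum over all 12 NMDA genes was 22.8, 28.6 and 25.2 RPKM in wild type, 22.1, 20.5 and 21.2 RPKM in the mutants and 9.97, 11.02 and 7.86 RPKM in the morphants. The mutant sums lay below those of wild type and the morphant sums below both. The AMPA, kainate and NMDA receptor genes, without delta, were set against the sum of these and the GABA-A, rho and glycine receptor genes. They held 40.9, 49.6 and 51.3% of it in wild type, 52.2, 49.9 and 50.9% in the mutants and 48.2, 49.2 and 49.3% in the morphants. The share lay between 48.2% and 52.2% in every library but wild-type replicate 1, where it was 40.9%, so the groups overlapped.

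The delta receptors bind glycine or D-serine and cerebellin rather than glutamate. Both GluD1 genes fell in the mutants and in the morphants. *grid1a* was at 1.70, 3.17 and 2.23 RPKM in wild type, 0.692, 0.884 and 0.834 RPKM in the mutants and 0.241, 0.380 and 0.458 RPKM in the morphants. Its level fell in the mutants (log2 fold change −1.42, standard error 0.396, adjusted p = 0.0211) and in the morphants (log2 fold change −2.41, standard error 0.396, adjusted p = 0.00197), with the groups separate. The mutant call was kept in 13 of 21 alternatives and in 5 of the 9 fits without 1 library. *grid1b* had 1 high wild-type value, with 4.40, 1.79 and 1.24 RPKM, beside 0.502, 0.567 and 0.717 RPKM in the mutants and 0.156, 0.254 and 0.360 RPKM in the morphants, and it fell in both groups. Its mutant call was kept in 12 of 21 alternatives and in 5 of the 9 fits without 1 library. The delphilin gene *grid2ipa*, which passed the filter through wild type alone, fell in the mutants by 1.76 and in the morphants by 2.75 on the log2 scale, the latter turning to 0.02 above 0 under cyclic loess. The gene *grid2ipb* fell in the morphants by 1.66.

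Metabotropic glutamate receptor genes had sums of 36.6, 25.8 and 24.0 RPKM in wild type, 17.9, 17.7 and 18.3 RPKM in the mutants and 11.1, 11.6 and 10.4 RPKM in the morphants, in 3 separate ranges. Of the 11 genes tested 8 fell in the morphants and 1 in the mutants. *GRM2 (2 of 2)*, of the group that lowers transmitter release, had the highest level of the class and was at 6.36, 3.84 and 5.47 RPKM in wild type, 5.35, 5.41 and 4.60 RPKM in the mutants and 4.71, 4.59 and 4.53 RPKM in the morphants. Its values overlapped, with a log2 fold change against wild type of −0.0013 in the mutants and −0.15, adjusted p = 0.603 in the morphants, and its share of the class sum was 17.4, 14.8 and 22.8% in wild type, 29.9, 30.6 and 25.1% in the mutants and 42.3, 39.4 and 43.7% in the morphants.

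*grm3*, of the same group, was at 2.96, 1.19 and 1.39 RPKM in wild type, 1.45, 1.35 and 1.62 RPKM in the mutants and 0.189, 0.437 and 0.465 RPKM in the morphants. It fell in the morphants (log2 fold change −2.02, standard error 0.456, adjusted p = 0.00843) and was higher in the mutants than in the morphants (log2 fold change 1.82, standard error 0.456, adjusted p = 0.0290), with mutant values inside the wild-type range. The call between mutants and morphants was kept in 12 of 21 alternatives. The genes of mGluR5, which couples to phospholipase C and calcium release, fell in the morphants, with log2 fold changes of −3.13 for *GRM5 (1 of 2)* and −2.71 for *GRM5 (2 of 2)*. The release-inhibiting receptors *GRM8 (1 of 2)* and *grm8a* fell there by 2.37 and 1.34. *grm4* and *grm2a* were lower in the morphants at an adjusted p of 0.0295 and 0.0398, with changes of −0.91 and −0.81 that were under 2-fold.

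The mGluR6 gene *grm6a* (ENSDARG00000017742) was at 1.51, 0.980 and 1.95 RPKM in wild type, 0.380, 0.497 and 0.306 RPKM in the mutants and 0.237, 0.0640 and 0 RPKM in the morphants, with 7, 3 and 0 reads in the morphants. The gene fell in the morphants (log2 fold change −3.11, standard error 0.572, adjusted p = 0.00327) and in the mutants (log2 fold change −1.65, standard error 0.572, adjusted p = 0.0496). The gene passed the filter through wild type alone, the mutant call was kept in 7 of 21 alternatives, and its value under cyclic loess was 0.0016. Its paralogue *grm6b* was at 3.05, 0.995 and 1.67 RPKM in wild type, 1.17, 1.40 and 1.38 RPKM in the mutants and 0.469, 0.423 and 0.659 RPKM in the morphants. The gene fell in the morphants (log2 fold change −1.59, standard error 0.438, adjusted p = 0.0204), and the mutant values lay inside the wild-type range.

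Some genes of the cascade that mGluR6 controls in ON bipolar cells fell, while in the mutants their summed level stayed inside the wild-type range, at 100.6 to 122.9 RPKM in wild type, 109.8 to 112 RPKM in the mutants and 65.3 to 86 RPKM in the morphants. Of 12 genes tested on a list of this cascade, 7 fell in the morphants and none rose, and 4 fell and 1 rose in the mutants, with medians of −1.66 and −0.62. *trpm1a*, for the cation channel that mGluR6 closes, was at 1.80, 1.45 and 1.76 RPKM in wild type, 0.413, 0.549 and 0.382 RPKM in the mutants and 0.0554, 0.140 and 0 RPKM in the morphants, and it fell in the mutants (−1.70, adjusted p = 0.0234) and the morphants (−3.51, adjusted p = 0.000928). *nyx*, for nyctalopin, which holds that channel in place, fell in both, by 2.46 in the mutants and 3.04 in the morphants on the log2 scale. Both genes lay below wild type in all 6 libraries, and *trpm1a* would have missed the filter without wild type. *gnb3a*, for a G protein beta subunit, rose in the mutants (1.02, adjusted p = 0.00230).

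Levels of photoreceptor and interneuron markers in whole embryos are set beside these genes, and they do not by themselves give the state of the retina. Of 12 photoreceptor genes tested, 11 fell in the mutants and 12 in the morphants, and the summed level of the list was 448 to 536 RPKM in wild type, 40.5 to 44.3 RPKM in the mutants and 34.5 to 43.5 RPKM in the morphants. Of the 14 photoreceptor genes in the table, 2 were at 0 in all libraries. Of 7 genes of retinal interneurons tested, 2 rose in the mutants and none fell in either group, and their sum was 74.9 to 83.8 RPKM in wild type, 112 to 122 RPKM in the mutants and 83.0 to 101 RPKM in the morphants. The part of either cell type in the changes of the receptor genes was not tested.

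**Figure D2:**
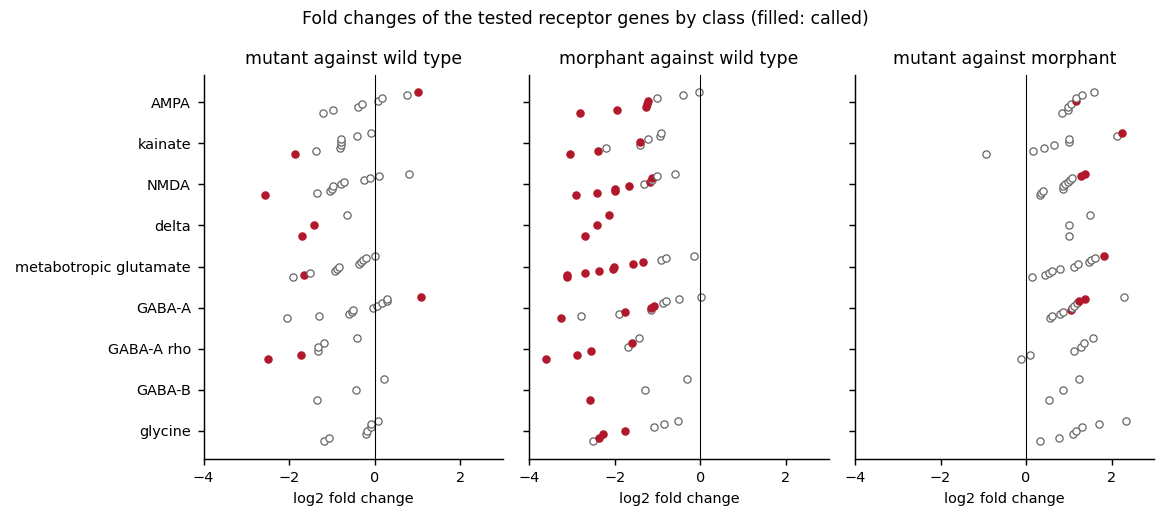
Log2 fold change of each of the 68 receptor genes tested, by receptor class, in the mutants and the morphants against wild type and in the mutants against the morphants. Each point is a gene, filled points were called, and delphilin and *grm7p* are left out. The points of the morphants lie below 0 with the exception of 1, and the points of the mutants lie on both sides of 0 in the AMPA, NMDA, GABA-A, GABA-B and glycine classes.

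The GABA-A receptor genes had sums of 40.8, 33.1 and 28.5 RPKM in wild type, 26.4, 25.5 and 28.1 RPKM in the mutants and 12.1, 15.9 and 11.6 RPKM in the morphants, in 3 separate ranges. Of 11 genes tested, 4 fell and none rose in the morphants, and 1 rose and none fell in the mutants. In the mutants 3 were higher than in the morphants, where 3.48% of all genes were higher. A typical synaptic receptor holds alpha, beta and gamma subunits, and receptors outside the synapse often hold delta in place of gamma.

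*gabra5*, for an alpha subunit, was at 2.14, 3.64 and 3.21 RPKM in wild type, 3.397, 3.74 and 3.66 RPKM in the mutants and 0.757, 2.09 and 1.44 RPKM in the morphants. Its level fell in the morphants (log2 fold change −1.09, standard error 0.363, adjusted p = 0.0436), a call kept in 7 of 22 alternatives, and was higher in the mutants than in them (log2 fold change 1.38, standard error 0.363, adjusted p = 0.0354), a call kept in 14.

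*gabrd*, for the delta subunit, was at 2.87, 2.21 and 2.38 RPKM in wild type, 1.45, 1.83 and 1.78 RPKM in the mutants and 0.434, 0.874 and 0.721 RPKM in the morphants. The 3 groups did not overlap. This gene fell in the morphants (log2 fold change −1.77, standard error 0.333, adjusted p = 0.00366), a call kept in each of the 21 alternatives in which it was tested, and was higher in the mutants than in the morphants (log2 fold change 1.24, standard error 0.333, adjusted p = 0.0383), a call kept in 10 of 21. *gabra3*, for another alpha subunit, fell in the morphants by 3.25 on the log2 scale. This call came from 16, 3 and 0 reads in the morphants. *gabrp*, for the pi subunit, known in mammals from epithelia more than from neurons, was at 4.31, 3.11 and 3.70 RPKM in wild type, 4.22, 3.90 and 5.50 RPKM in the mutants and 2.19, 2.60 and 2.94 RPKM in the morphants, and was not called in any comparison. *GABRA4* had 0, 3 and 20 reads in wild type and none in the morphants. *GABRG1* had 41, 0 and 21 reads in wild type, so neither allowed a comparison.

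The summed level of the rho genes was lower than in wild type in both groups. It was 12.8, 15.1 and 6.84 RPKM in wild type, 2.45, 3.63 and 3.12 RPKM in the mutants and 1.55, 2.87 and 2.50 RPKM in the morphants, with wild type above the others. All 6 genes were tested, 4 fell in the morphants, and 2 in the mutants. *GABRR1 (1 of 2)* (ENSDARG00000013047) was at 2.18, 3.19 and 2.50 RPKM in wild type, 0.698, 0.769 and 0.666 RPKM in the mutants and 0.754, 1.46 and 0.419 RPKM in the morphants. It fell in the mutants (log2 fold change −1.73, standard error 0.437, adjusted p = 0.0134), a call kept in 20 of 21 alternatives, and in the morphants (log2 fold change −1.61, standard error 0.437, adjusted p = 0.0192). The mutant and morphant values overlapped (−0.13, adjusted p = 0.887).

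*gabrr1*, with 19, 47 and 6 reads in wild type, through which alone it passed the filter, fell in the mutants (log2 fold change −2.49, standard error 0.774, adjusted p = 0.0325) and the morphants (log2 fold change −3.62, standard error 0.774, adjusted p = 0.00662). Its wild-type values, 2.54, 6.27 and 0.690 RPKM, were far apart but all above the mutant values of 0.302, 0.346 and 0.320 RPKM and the morphant values of 0.120, 0.227 and 0 RPKM. The mutant call of *gabrr1* was kept in 11 of 21 alternatives and in 4 of the 9 fits without 1 library. *gabrr2b* and *gabrr3b* fell in the morphants by 2.89 and 2.55 on the log2 scale. *gabrr2a* and *gabrr3a* were not called, and *gabrr2a* had no read in wild-type replicate 2.

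GABA-B receptors are pairs of a GABA-B1 subunit, which binds GABA, and a GABA-B2 subunit, which couples to the G protein. The 2 genes for GABA-B1 differed from each other. *gabbr1a* was at 1.49, 2.44 and 1.80 RPKM in wild type, 0.746, 0.630 and 0.638 RPKM in the mutants and 0.0535, 0.556 and 0.251 RPKM in the morphants. The gene fell in the morphants (log2 fold change −2.59, standard error 0.553, adjusted p = 0.00658), and the mutant values, all below wild type, were not called (−1.36, adjusted p = 0.0846). *gabbr1b* was at 2.02, 2.56 and 2.25 RPKM in wild type, 2.58, 2.97 and 2.45 RPKM in the mutants and 2.03, 1.51 and 1.93 RPKM in the morphants, and was not called in any comparison, with changes against wild type of 0.22 in the mutants and −0.31 in the morphants. *gabbr2*, the single gene for GABA-B2 in the table, was at 2.66, 2.94 and 0.824 RPKM in wild type, 1.18, 1.44 and 1.52 RPKM in the mutants and 0.264, 1.06 and 1.15 RPKM in the morphants. Its wild-type values spread more widely than the groups differed, and it was not called.

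Glycine receptors inhibit motor neurons and interneurons of the spinal cord and the hindbrain, with alpha subunits that bind glycine and a beta subunit that anchors them at synapses through gephyrin. The sum of the 7 genes was 42.2, 24.6 and 26.4 RPKM in wild type, 23.2, 24.9 and 24.1 RPKM in the mutants and 15.9, 15.3 and 10.0 RPKM in the morphants. The morphant sums were below all others, and 2 of the 3 mutant sums lay below every wild-type sum. None of the 7 genes was called in the mutants, and 3 fell in the morphants.

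*glrbb* (ENSDARG00000052769), for the beta subunit, had the highest mean level of all receptor genes, at 17.3, 6.42 and 10.2 RPKM in wild type, 9.36, 9.84 and 10.4 RPKM in the mutants and 6.74, 6.13 and 4.49 RPKM in the morphants. Wild-type replicate 1 was the highest value and the mutant values lay between those of wild type, with changes of −0.08, adjusted p = 0.867 in the mutants and −0.86, adjusted p = 0.0593 in the morphants. *glrba*, the other beta gene, was at 2.13, 1.74 and 1.04 RPKM in wild type, 0.527, 1.07 and 0.602 RPKM in the mutants and 0.306, 0.729 and 0 RPKM in the morphants, with no read in morphant replicate 3, and it fell in the morphants (log2 fold change −2.38, standard error 0.741, adjusted p = 0.0337), a call kept in 7 of 21 alternatives. *glra4a*, second in level among the glycine receptor genes, was at 6.70, 5.01 and 9.47 RPKM in wild type, 6.05, 6.08 and 5.68 RPKM in the mutants and 5.21, 5.15 and 3.97 RPKM in the morphants, and was not called (−0.52, adjusted p = 0.109 in the morphants). *glra1*, for the alpha subunit of the touch escape response in zebrafish, was at 8.08, 2.72 and 1.56 RPKM in wild type, 3.37, 3.17 and 2.79 RPKM in the mutants and 1.43, 0.995 and 0.478 RPKM in the morphants. Its level fell in the morphants (log2 fold change −1.77, standard error 0.568, adjusted p = 0.0374), but its wild-type libraries ran from 1.56 to 8.08 RPKM and 9 of 22 alternatives kept the call. *glra4b* fell in the morphants by 2.28 on the log2 scale, in each of the 9 fits without 1 library. *glra2* and *GLRA3* were not called.

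**Figure D3:**
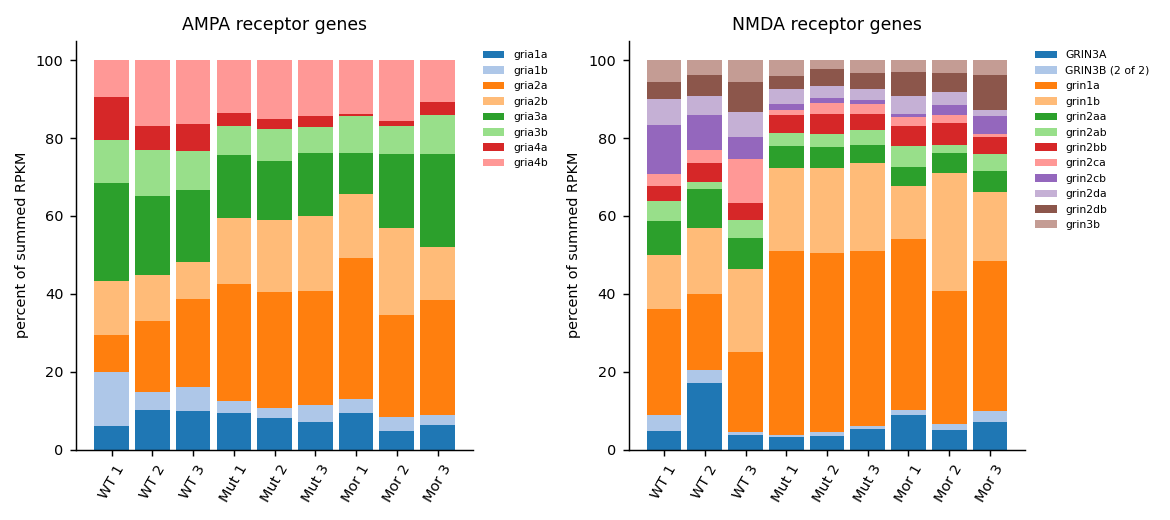
Share of each gene, in percent, of the summed RPKM of the 8 AMPA receptor genes (left) and the 12 NMDA receptor genes (right), as 1 stacked bar for each library, labelled WT, Mut (mutant) and Mor (morphant). The stretches of *gria2a* with *gria2b*, and of *grin1a* with *grin1b*, are longer in all mutant and morphant libraries than in any wild-type library. A dependence of the change on the level of a gene is not removed from the shares.

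Across the 71 genes, groups of libraries were often separate. Every morphant library was below every wild-type library in 48 genes, which was 67.6% of those tested, where 22.4% of all genes were separate in that direction. For mutants below wild type the number was 35, or 49.3%, beside 27.6% of all genes, and for mutants above the morphants it was 52, or 73.2%, beside 26.1%. Mutants lay above wild type throughout in 4 genes, beside 25.0% of all genes, morphants lay above wild type in none, beside 19.9%, and mutants lay below the morphants in 2, beside 21.2%. With 3 libraries against 3, an exact permutation test on a single gene cannot give a two-sided p below 0.10.

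The size of the difference from wild type depended on the level of a gene, in receptor genes and in all others. In the morphants the median log2 fold change of all genes tested was −1.80 at mean levels up to 1 RPKM, −0.77 from 1 to 2 RPKM, −0.03 from 2 to 4 RPKM and 0.31 from 4 to 8 RPKM. The receptor genes at these levels, 19, 33, 13 and 5 genes, had medians of −2.55, −1.66, −0.91 and −0.52. They lay below the median of all genes in each range. In the lowest range 43.3% of all genes fell and 14 of 19 receptor genes did, from 1 to 2 RPKM 25.9% of all genes and 21 of 33 receptor genes, and from 2 to 4 RPKM 8.89% of all genes and 5 of 13. From 4 to 8 RPKM 2.76% of all genes fell and 0 of 5 receptor genes. From 8 to 16 RPKM 1.58% of all genes fell and 0 of 1 receptor gene.

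In the mutants the medians of all genes were −1.05, −0.31, 0.15 and 0.33 over the same ranges, and those of the receptor genes were −1.21, −0.79, −0.08 and 0.18. Of the receptor genes 3 of 19 fell in the lowest range, where 29.8% of all genes fell, and 4 of 33 in the next, where 13.6% of all genes fell. For the mutants against the morphants the medians of all genes were 0.81, 0.48, 0.21 and 0.02, and those of the receptor genes were 1.08, 1.02, 0.79 and 1.05. The medians of the receptor genes in this comparison stayed between 0.79 and 1.08 over these ranges, while those of all genes came down to 0.02.

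**Figure D4:**
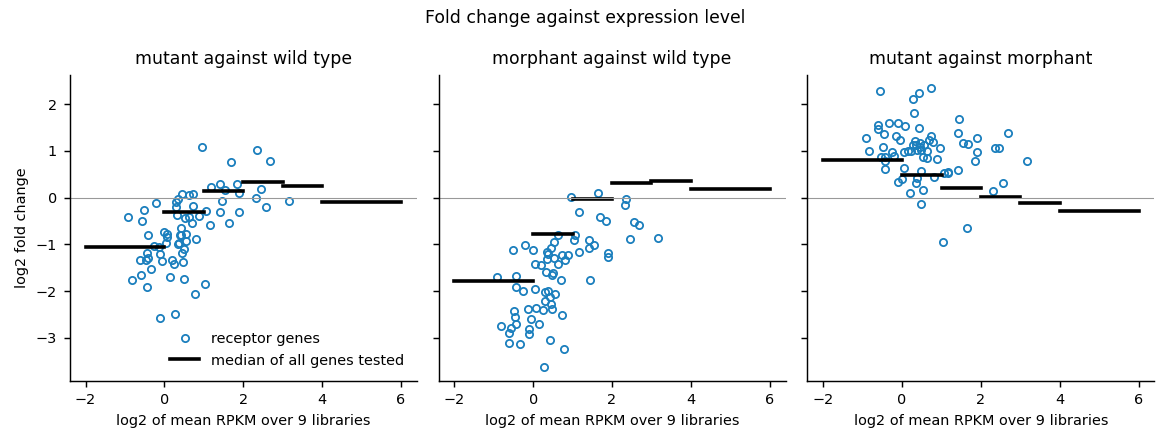
Log2 fold change of each of the 71 genes tested against the mean level over all libraries, on a log2 axis in RPKM, for the 3 comparisons. Coloured points are the receptor, delphilin and *grm7p* genes and black lines the median of all genes tested in a range of levels, where the first line stands for all means up to 1 RPKM and the last for all means above 16 RPKM; the points of the morphants lie mostly below the lines and those of the mutants against the morphants mostly above them.

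The reads behind these values were few in wild type and in the morphants. A gene had a median of 40 reads per library in wild type, 107 in the mutants and 26 in the morphants. Of 213 values in each group, 5 in wild type, none in the mutants and 27 in the morphants were of 3 reads or fewer. The median coefficient of variation between replicates was 35.8% in wild type, 12.4% in the mutants and 42.9% in the morphants, where counting alone gives 15.7%, 9.39% and 19.4%. Replicates thus varied by more than counting in each group, and 35 of the 71 genes were highest in wild-type replicate 1, 21 in replicate 2 and 15 in replicate 3. Far beyond the receptor genes, log2 values of paired replicates correlated at 0.677 to 0.7545 in wild type. The range was 0.964 to 0.969 in the mutants and 0.926 to 0.945 in the morphants. The fit with group weights gave wild type 0.345, the mutants 3.69 and the morphants 0.786. The main fit gave a gene the same standard error in all comparisons, and every change against wild type rests on the least correlated group. The part of this spread and of the read depth in the differences between groups was not tested beyond the alternatives given. The reads of every library were also thinned to the smallest normalized library size, 4857910, which does not make the read totals equal. With this thinning 37 receptor genes fell in the morphants, where 13.4% of all genes fell. Of the thinned values 5 were higher in the mutants than in the morphants and 1 was lower, where 3.01% of all genes were higher and 2.43% lower.

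The summed level of general markers of neurons was above wild type in the mutants. Of 12 neuronal genes tested, 5 rose in the mutants and none fell, and 3 fell in the morphants and none rose. In the mutants 8 were higher than in the morphants. Of all genes tested, 10.4% rose in the mutants, 14.9% fell in the morphants and 3.48% were higher in the mutants than in the morphants. Their summed level was 292 to 316 RPKM in wild type, 441 to 467 RPKM in the mutants and 222 to 229 RPKM in the morphants, and the *gap43* entry was at 0 in all libraries. *elavl3*, for an RNA-binding protein of early neurons, was at 13.6, 11.5 and 11.5 RPKM in wild type, 53.4, 51.6 and 52.8 RPKM in the mutants and 20.7, 24.1 and 19.5 RPKM in the morphants, highest in the mutants. *snap25a*, for a protein of synaptic vesicle fusion, was at 34.0, 33.2 and 38.0 RPKM in wild type, 95.0, 95.4 and 90.6 RPKM in the mutants and 38.2, 48.9 and 33.9 RPKM in the morphants, with mutants above both other groups. The higher neuronal markers of the mutants stand beside higher *gria2a* and *grin1a* and a lower median of all receptor genes, and their part in these levels was not tested. Of 11 genes of neural progenitors and radial glia, 4 rose in the mutants and 2 in the morphants and none fell. Of 6 oligodendrocyte genes, 1 rose and 2 fell in the mutants, and 1 rose and 3 fell in the morphants. Of 7 muscle genes, 5 fell in the mutants and none in the morphants.

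Genes for the enzymes and transporters of the transmitters were called in both directions, as were all genes tested. Of 20 genes for glutamate synthesis and transport, 3 rose and 2 fell in the mutants, where 10.4% of all genes rose and 12.1% fell. In the morphants 2 of the 20 rose and 5 fell, where 7.45% of all genes rose and 14.9% fell. *slc17a6b*, for a transporter that fills synaptic vesicles with glutamate, was at 4.63, 1.94 and 3.19 RPKM in wild type, 9.25, 8.69 and 9.10 RPKM in the mutants and 3.81, 4.72 and 4.17 RPKM in the morphants, and it rose in the mutants (1.53, adjusted p = 0.00275). *glsa*, for glutaminase, which makes glutamate, was at 1.496, 3.41 and 1.93 RPKM in wild type, 6.80, 6.06 and 6.10 RPKM in the mutants and 3.01, 2.71 and 2.63 RPKM in the morphants, and likewise rose in the mutants (1.51, adjusted p = 0.00329). *slc1a2a*, for a transporter that clears glutamate from the synapse, was at 2.13, 4.11 and 2.47 RPKM in wild type, 0.108, 0.299 and 0.0921 RPKM in the mutants and 0, 0 and 0 RPKM in the morphants. This gene passed the filter through wild type alone, so it had to be lower elsewhere. It fell in the mutants (−3.52, adjusted p = 0.000976) and in the morphants (−4.85, adjusted p = 0.000300), where no library had a read.

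Of 19 genes for GABA and glycine synthesis and transport, 3 rose and 1 fell in the mutants, where 10.4% of all genes rose and 12.1% fell. In the morphants 3 of the 19 rose and 6 fell, where 7.45% of all genes rose and 14.9% fell. In the mutants 6 were higher than in the morphants, where 3.48% of all genes were higher. *slc32a1*, for the vesicular transporter of GABA and glycine, was at 12.5, 9.53 and 10.9 RPKM in wild type, 12.5, 12.8 and 13.0 RPKM in the mutants and 5.33, 6.21 and 4.25 RPKM in the morphants. It fell in the morphants (−1.05, adjusted p = 0.00153), with mutant values in and just above the wild-type range. *slc12a5b*, for a KCC2 chloride exporter that sets whether GABA inhibits, was at 2.25, 2.41 and 1.38 RPKM in wild type, 2.19, 1.87 and 1.47 RPKM in the mutants and 0.386, 0.455 and 0.345 RPKM in the morphants, and it fell in the morphants (−2.06, adjusted p = 0.00247). *slc6a9*, for a glycine transporter, was at 1.99, 2.21 and 3.88 RPKM in wild type, 9.78, 9.17 and 9.07 RPKM in the mutants and 4.43, 6.83 and 5.03 RPKM in the morphants, and rose in the mutants (1.82, adjusted p = 0.000829) and, at just over 2-fold, in the morphants (1.02, adjusted p = 0.0150). The neuronal glycine transporter *slc6a5* had 2 entries, and the one numbered ENSDARG00000015880 had no read in wild type and 93, 72 and 84 reads in the mutants. Its mutant mean of 1.16 RPKM was at least 5.36-fold higher than a floor of 3 reads per wild-type library. The other entry, ENSDARG00000067964, was read in wild type, at 1.09, 0.613 and 0.646 RPKM. It was at 0.581, 0.612 and 0.264 RPKM in the mutants and 0, 0.289 and 0.123 RPKM in the morphants. In limma it was not called in the mutants (−0.62, adjusted p = 0.480) and fell in the morphants (−2.06, adjusted p = 0.0298). Without wild type this entry would have missed the filter.

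Scaffold and auxiliary genes of excitatory synapses had medians below 0 in both groups. Of 46 such genes tested, 22 fell and none rose in the morphants, and 8 fell and 2 rose in the mutants. In the mutants 8 were higher than in the morphants, and the medians were −1.18, −0.54 and 0.89. Of all genes tested, 14.9% fell in the morphants, and 12.1% fell and 10.4% rose in the mutants. The share higher in the mutants than in the morphants was 3.48%. *cacng3b*, for an AMPA receptor auxiliary subunit, was at 5.59, 5.15 and 4.88 RPKM in wild type, 3.07, 2.87 and 3.36 RPKM in the mutants and 1.42, 1.23 and 0.767 RPKM in the morphants, with no overlap between groups, and it fell in the morphants (−2.14, adjusted p = 0.000516). *dlgap2b*, for a scaffold protein that binds PSD-95, was at 1.91, 1.55 and 1.64 RPKM in wild type, 0.290, 0.214 and 0.308 RPKM in the mutants and 0, 0 and 0 RPKM in the morphants, and fell in both the mutants (−2.28, adjusted p = 0.00446) and the morphants (−4.17, adjusted p = 0.000312), after passing the filter through wild type alone. *pick1*, which binds GluA2 and takes part in its trafficking, was at 0.694, 1.38 and 0.828 RPKM in wild type, 4.69, 4.07 and 4.01 RPKM in the mutants and 2.02, 2.23 and 0.948 RPKM in the morphants. It rose in the mutants (2.08, adjusted p = 0.00300), as did *cacng8a* (2.04, adjusted p = 0.0156). Of 25 genes for partners of inhibitory receptors, 6 fell and none rose in the morphants, 2 rose and none fell in the mutants, and 3 were higher in the mutants than in the morphants. *gphnb*, for gephyrin, the scaffold of glycine and GABA-A receptors, was at 4.39, 5.95 and 4.97 RPKM in wild type, 4.72, 4.51 and 4.80 RPKM in the mutants and 2.67, 1.77 and 0.597 RPKM in the morphants, and fell in the morphants (−1.75, adjusted p = 0.0129).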

How the data were processed

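Whole-embryo RNA was sequenced from 9 libraries, 3 per group. The authors selected polyA RNA for directional libraries, mapped single-end reads of 50 bp to Zv9 (STAR), obtained counts per gene (HTSeq) and used edgeR. The authors deposited RPKM values for 33737 genes with gene lengths, and 0 columns of sample values stayed unused. Multiplied by length, the RPKM values were whole multiples of 1 read in 100% of values (tolerance 0.01), which gave back the reads. PCR reads are not independent molecules, so floors of 3 reads cover counting error only.

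RPKM values were analysed as log2(RPKM + 0.1) for the 21982 genes that reached 0.5 RPKM in 3 or more libraries, with all 9 libraries in one fit of 3 group means (limma 3.58.1 with a mean-variance trend, R 4.3.3) and Benjamini-Hochberg adjustment over all genes tested. The fit was run on simulated data with changes planted only in the mutants, in genes with means of at least 2 RPKM. That run does not cover lower genes or the morphants. Python 3.11.15 with numpy 2.4.6, pandas 2.3.3 and, for plots, matplotlib 3.10.9 was used for the summaries. The alternatives changed the pseudocount (1 or 0.01), the filter (none, or means of 2 RPKM or more), the scaling (median of ratios, read totals, quantile, cyclic loess), the libraries in the fit (only the groups compared, or each library left out), the weights (by group), the test (voom on recovered reads) and the block (the replicate number). Thinning of reads was added after the data were seen.

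The text names every receptor gene called in any comparison, the obligate or shared subunits *grin1a*, *grin1b*, *gabbr1a*, *gabbr1b*, *gabbr2*, *glrba* and *glrbb*, and the gene with the highest mean in each class, apart from some genes that are not reported here on their own but are included in the counts, sums and medians. Receptor genes named as not called and genes of the other lists were chosen after their values were seen. The members and lists were chosen with earlier results of these data known. Of the 78 identifiers, 67 were found in a table of gene names. Coordinates and sequences are not given, since the annotation used here is of another build. The column of wild-type replicate 3 repeats the number of replicate 2 and was assigned by its sample title. Libraries of 1 group differed by more than sampling noise and were treated as separate, and nothing says that they came from separate clutches, so p-values measure the spread between pools.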

Additional observations from a re-analysis of the deposited data

Results flagged for a closer look

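*grin1a*, the gene of an obligate NMDA receptor subunit, was 1.39 higher on the log2 scale in the mutants than in the morphants (limma's adjusted p = 0.00137). Against wild type every mutant library was above and every morphant library below all 3 wild-type libraries, and the tested difference is between the 2 depleted groups. *grin1a* was singled out for this difference between the mutants and the morphants. Its changes against wild type, 0.79 in the mutants and −0.60 in the morphants, were under 2-fold and not called.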

How the results depend on the processing

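Depth limits the morphant and wild-type values most, since a median receptor gene had 26 and 40 reads there. Of 76 changes of named receptor genes under 22 alternatives, 1274 values kept their direction and their side of the threshold, 306 lost the call, 17 gained it and 25 reversed. Of these reversals 4 were of called changes. The causes were not tested.

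The count of receptor genes lower in the morphants than in wild type, 40, became 25 at a pseudocount of 1, 5 at a mean of at least 2 RPKM, where only 19 genes are tested, 11 after quantile normalization, 6 after cyclic loess, 25 with only the groups compared and 22 with group weights. It ranged from 32 to 41 without 1 library. The count lower in the mutants than in wild type, 8, became 1 at a mean of at least 2 RPKM, 2 with read totals, 4 after quantile normalization, 2 after cyclic loess, 14 with only the groups compared and 22 with voom, and ranged from 3 to 12 without 1 library. The count higher in the mutants than in wild type, 2, became 0 with a pseudocount of 1 or 0.01, no filter or median-of-ratios scaling, 1 at a mean of at least 2 RPKM, after quantile normalization, after cyclic loess, with only the groups compared and with group weights, and 4 with read totals, and ranged from 0 to 1 without 1 library. The count higher in the mutants than in the morphants, 8, became 1 at a pseudocount of 1 and after quantile normalization, 4 with no filter, 5 at a mean of at least 2 RPKM and after thinning, 26 with read totals and with voom, 2 after cyclic loess, 18 with only the groups compared and 22 with group weights, and ranged from 1 to 16 without 1 library. The count lower in the mutants than in the morphants, 0, became 1 after thinning. Among all genes tested, 15.6% were lower in the mutants than in wild type with voom and 12.6% with only the groups compared. With read totals 5.4% were lower there and 30.0% higher. At a mean of at least 2 RPKM 7.04% were lower there, and after cyclic loess 6.29%. Of 21982 genes, 2290 were lower there after quantile normalization. Those higher there were 1793 and 2206 at a pseudocount of 1 and 0.01, and 2109 with median-of-ratios scaling. They were 2502 after quantile normalization and 2363 with group weights. With no filter 7.94% were higher there, and after cyclic loess 9.27%. In the morphants 10.2% were lower with only the groups compared and 4.16% after cyclic loess. Of 21982 genes, 2296 were lower in the morphants at a pseudocount of 1, 1489 after quantile normalization and 1768 with group weights. Those higher in the mutants than in the morphants were 10.9% with read totals, 7.51% with voom and 7.32% with only the groups compared. They were 2.34% with no filter and 2.27% after cyclic loess, where 2.82% of the receptor genes were called. Of 21982 genes, 421 were higher at a pseudocount of 1, 378 after quantile normalization and 1731 with group weights. At a pseudocount of 1 and after quantile normalization the receptor genes called were 1.41% of those tested.

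The median log2 fold change in the morphants against wild type, −1.59, became −0.89 at a pseudocount of 1, −0.86 at a mean of at least 2 RPKM, −1.31 with read totals, −0.86 after quantile normalization and −0.71 after cyclic loess, and ranged from −1.66 to −1.39 without 1 library. That of the mutants against wild type, −0.65, became −0.45 at a pseudocount of 1, −0.0013 at a mean of at least 2 RPKM, 0.0428 with read totals and −0.098 after cyclic loess. That of the mutants against the morphants, 1.01, became 0.41 at a pseudocount of 1, 0.79 at a mean of at least 2 RPKM, 1.41 with read totals, 0.44 after quantile normalization and 0.48 after cyclic loess. Read totals moved the median of all genes tested to 0.68, 0.22 and 0.55 in these comparisons (mutants against wild type, morphants against wild type, mutants against morphants).

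Changes in the mutants that reversed were those of *gabbr2* (0.26 with read totals), *grin1b* (−0.010 after quantile normalization, −0.15 after cyclic loess, −0.052 after thinning, with the lowest of the fits without 1 library −0.13, for wild-type replicate 1), *glrba* (0.052 after cyclic loess), *glrbb* (0.64 with read totals, 0.011 after thinning, −0.43 to 0.28 without 1 library), *GRM2 (2 of 2)* (0.72 with read totals, −0.20 to 0.15 without 1 library, above 0 without wild-type replicate 1 or 3 or mutant replicate 3) and *grm6a* (0.0016 after cyclic loess). In the morphants they were those of *gria2a* (0.25 with read totals, 0.092 after quantile normalization, −0.49 to 0.23 without 1 library, above 0 without wild-type replicate 2 or 3 or morphant replicate 3), *gabbr1b* (0.11 after quantile normalization), *grin2db*, *grin3b* and *grid2ipa* (0.19, 0.24 and 0.020 after cyclic loess) and *GRM2 (2 of 2)* (0.14 with read totals, −0.35 to 0.0081 without 1 library).

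Libraries with the same replicate number did not deviate together (correlations of −0.0409 to 0.00598). With the replicate block, 39 genes were lower in the morphants, 6 lower and 0 higher in the mutants, and 4 higher in the mutants than in the morphants. Among all 21982 genes tested, 3055 were lower in the morphants, and 2398 lower and 2246 higher in the mutants. Those higher in the mutants than in the morphants were 560.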
